A study of Mus musculus with 2 samples.

Results

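The cells described here are lung cells picked on their own counts, as carrying UMIs of at least 3 of the 8 genes C1qtnf3, Adh7, Bdkrb1, Bmp7, Faim2, Rbp4, Stc2 and St8sia2. A UMI is a molecular tag, and 1 UMI is counted as 1 RNA molecule. A cell also had to have 200 to 6000 genes and at most 10% of UMIs from mitochondrial genes, and 0 UMIs of the epithelial gene Epcam, the leukocyte gene Ptprc and the mesothelial genes Msln and Upk3b. Of 16536 cells that passed the limits on genes and mitochondrial UMIs and had no Epcam or Ptprc UMI, 418 met the rule and are called members. They are 418 of the 23349 cells in the count tables. Since the 8 genes chose the members, their levels in members describe the choice and are no finding.

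Single-cell RNA-seq was made from the lungs of 1 mouse per group, 14 days after birth, to ask what loss of Hhip in Gli1-expressing stromal cells changes in the young lung. Both mice carried Gli1creERT/+ and Hhipflox/flox, so that Cre, made where Gli1 is active, can delete the floxed Hhip part after tamoxifen. One mouse had tamoxifen and is called CKO, and the other had oil at the same times and is called the control, with doses on each of 3 days from birth. Stromal cells sorted without DAPI, CD31, CD45 and CD326 signal were mixed with sorted epithelial cells, 3 parts to 1, on 1 lane of a 10x Genomics chip per mouse.

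The control library held 10999 cells with 43291709 UMIs and a median of 3531 UMIs per cell. The CKO library held 12350 cells with 52338969 UMIs and a median of 3720 UMIs per cell. There was 1 library per group, so no spread between mice could be measured and no statistical test was made. Intervals are exact, at 95%, and cover counting error only. Among the cell barcodes, 193 occurred in both libraries, 2 of them in control members and none in CKO members. The mice differed in sex as well as in treatment. Xist, the RNA that silences an X chromosome in female cells, had 0 UMIs in control members and 412 CPM in CKO members, where CPM is UMIs per 1000000 UMIs summed over the cells. The Y-linked genes Eif2s3y and Ddx3y had 57.2 and 51.1 CPM in control members and 0 UMIs in CKO members, which allows up to 3 counts in 779741 UMIs. Sex, treatment and mouse cannot be told apart in any difference between the libraries.

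Lung fibroblasts differ by place. Adventitial fibroblasts lie in the sheaths of airways and larger vessels and make much fibrillar collagen, alveolar fibroblasts lie in the walls of the air sacs, and myofibroblasts lay down elastin while the sacs divide. Epithelial cells release the hedgehog ligand, fibroblasts receive it through the receptor Ptch1 and the Gli factors, and Hhip, a surface protein that the pathway itself induces, binds the ligand and limits the signal.

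In the control library 259 of 7761 cells were members, a share of 3.34% (exact Clopper-Pearson interval 2.95 to 3.76%). In the CKO library 159 of 8775 cells were members, a share of 1.81% (1.54 to 2.11%). The share was higher in the control mouse. Without the limit on Msln and Upk3b, 5 more control cells and 6 more CKO cells would have been members. Members were deeper than other cells, with medians of 4594 and 4480 UMIs in the control and CKO library, against 2894 and 3058 UMIs in all other cells without Epcam and Ptprc UMIs. In this order, control first, pairs of values are given from here on. A deeper cell passes a rule on detected genes more easily. With each cell thinned to 2000 UMIs before the rule and shallower cells left out, the shares were 1.85 and 0.842%. The control share was the higher of the 2 there as well.

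Most members stood at the threshold. Exactly 3 of the 8 genes were found in 141 control members (54.4%) and 97 CKO members (61.0%), 4 genes in 63 and 35 members, 5 genes in 37 and 18, 6 genes in 15 and 8, and 7 genes in 3 and 1. No member had all 8. Just outside the threshold, 297 control and 307 CKO cells had exactly 2 of the genes. These cells had median depths of 4314 and 4096 UMIs, against 4547 and 4550 UMIs in the members with exactly 3 genes. Cells with exactly 2 genes were more numerous than all members together in either library.

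The rule could be met without the genes that lead its name. Of the 418 members, 224 (53.6%) had a UMI of C1qtnf3, 360 (86.1%) had one of C1qtnf3, Adh7, Bdkrb1 or Bmp7, and 58 (13.9%) had none of those 4. Rbp4 and St8sia2 were found together in 275 members (65.8%). The triple found most often among members with exactly 3 genes was C1qtnf3 with Rbp4 and St8sia2, in 54 cells.

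C1qtnf3 encodes a secreted protein related to complement C1q and adiponectin (ENSMUSG00000058914, chr15:10952332-10980150 on the plus strand, positions on GRCm38). It had 239 and 163 CPM in members, 25.7 and 19.8 CPM in cells with adventitial markers and 13.9 and 0.754 CPM in cells with alveolar markers. Cells with a marker set had at least 4 of 8 genes of 1 of 6 lists, more than of any other list, and were not members. There were 499 and 595 cells with adventitial markers and 514 and 1732 with alveolar markers. Adh7, an alcohol dehydrogenase that oxidises retinol (ENSMUSG00000055301, chr3:138217760-138233382 on the plus strand), had 88.4 and 93.6 CPM in members and 13.9 and 8.21 CPM in adventitial-marker cells. Bdkrb1, the B1 receptor for kinin peptides (ENSMUSG00000041347, chr12:105603085-105605428 on the plus strand), had 57.2 and 76.95 CPM in members and 11.8 and 13.5 CPM in adventitial-marker cells. Bmp7, a secreted bone morphogenetic protein (ENSMUSG00000008999, chr2:172868012-172940321 on the minus strand), had 68.6 and 65.4 CPM in members and 4.82 and 2.415 CPM in adventitial-marker cells. All 4 were higher in members in both libraries, which the rule itself makes likely.

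Faim2, an inhibitor of Fas-induced cell death (ENSMUSG00000023011, chr15:99497012-99528165 on the minus strand), had 93.7 and 80.8 CPM in members against 9.105 and 6.28 CPM in adventitial-marker cells. Stc2, a secreted inhibitor of the IGF-binding-protein protease Pappa (ENSMUSG00000020303, chr11:31357307-31370074 on the minus strand), had 152 and 123 CPM against 35.9 and 29.95 CPM. St8sia2, which adds polysialic acid to Ncam1 and other surface proteins (ENSMUSG00000025789, chr7:73939119-74013690 on the minus strand), had 226 and 236 CPM against 88.9 and 83.1 CPM. Rbp4, the plasma carrier of retinol (ENSMUSG00000024990, chr19:38116629-38125281 on the minus strand), had 757 and 798 CPM in members, 527 and 399.5 CPM in adventitial-marker cells and 240.0 and 110.3 CPM in alveolar-marker cells. St8sia2 had 101 and 68.2 CPM in alveolar-marker cells. Rbp4 and St8sia2 were thus counted in other fibroblasts as well as in members.

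Free RNA gives UMIs in cells that do not make a gene, so the same shares were taken in the 3026 and 3270 cells with an Epcam UMI, whose median depths were 5348.5 and 6159.5 UMIs. C1qtnf3 was found in 61.0% (54.8 to 67.0%) and 41.5% (33.8 to 49.6%) of members and in 0.991 and 0.367% of the Epcam cells. Adh7 was found in 29.7 and 30.8% of members against 0.198 and 0.153%, and Bmp7 in 24.3 and 21.4% against 0.198 and 0.275%. Bdkrb1 was found in 19.3% (14.7 to 24.7%) and 32.1% (24.9 to 39.9%) of members against 0.364 and 0.306%. Rbp4 was found in 89.6 and 91.8% of members, and in 18.7 and 20.4% of the Epcam cells. Among the 8 genes Rbp4 was the one with a sizeable share in cells that had an epithelial tag; St8sia2 was next with 1.88 and 2.69%. With members thinned to 2000 UMIs, shares fell to 36.3 and 21.7% for C1qtnf3, 15.8 and 18.4% for Adh7, 11.7 and 17.1% for Bdkrb1, and 68.3 and 70.4% for Rbp4.

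No doublet step was applied. As a measure of them, 43 control members (16.6%) and 15 CKO members (9.43%) had UMIs of at least 2 genes of an AT2 list (the surfactant-making cells of the air sacs) other than Sftpc, Sftpb and Sftpa1, or at least 2 of an endothelial, immune or ciliated list. In all cells without Epcam and Ptprc UMIs the same measure gave 2441 (31.5%) and 1705 (19.4%). Those cells were not limited to fibroblasts, and single cells of the listed types meet the measure, so the shares do not compare doublets. At least 10 Sftpc UMIs were found in 42 and 10 members.

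All 16536 cells were clustered together with the 8 rule genes, Msln and Upk3b held out, and members fell in 20 of 36 clusters. The first cluster, led by Chodl, Bmp7 and Adh7, held 184 members among its 303 cells (60.7%), with 124 of the control and 60 of the CKO members. That is 47.9% of control members and 37.7% of CKO members. The second cluster, led by Agtr1b, Pla2g7 and Rbp4, held 98 members (56 and 42) among 874 cells, 11.2% of them. The third cluster, led by Lsamp, Mmp3 and Serpinf1, held 86 members (43 and 43) among 851 cells, 10.1% of them. The clusters are called by number after the members they hold, and Chodl, Agtr1b and Pla2g7 were chosen as leading genes after their values were seen. Clustering used the genes of these cells, so levels by cluster are descriptions. The split depends on the settings: at Leiden resolution 0.5 1 cluster held 85.7% of members, and with no gene held out 68.7%, against 44.0% here, both chosen after seeing the data.

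The 3 clusters together held 368 members (88.0%). A cluster led by Retnla, Tnfsf13os and Kcnk1 held 14 more (12 and 2), and the remaining 16 clusters held the rest. Among these were clusters whose leading genes included C1qa (3 members), Hbb-bs (2), Sox10 (2) and Ms4a1 (1). Members outside the first 3 clusters numbered 36 in the control and 14 in the CKO library. In them the AT2 list of 8 genes summed to 66200.0 and 22540.0 CPM, of which Sftpc, a surfactant protein, made 59920.0 and 20370.0 CPM. The median over these members was 2002 and 884.2 CPM, against 1590.0 and 1119 CPM in the first cluster's members, so the sums rested on part of the cells. Whether those were doublets was not tested.

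The share of cells in the first cluster climbed with the number of rule genes. It was 8.94% of the 604 cells with exactly 2 genes, 24.8% of members with 3, 60.2% with 4, 72.7% with 5, 95.7% with 6 and 100% with 7. Of the 82 members with at least 5 genes, 66 (80.5%) were in the first cluster. Of the 54 cells with the triple C1qtnf3, Rbp4 and St8sia2, 12 were in it, and of 38 with Bdkrb1, Rbp4 and St8sia2, 2 were. These counts describe the choice of members.

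**Figure D1:**
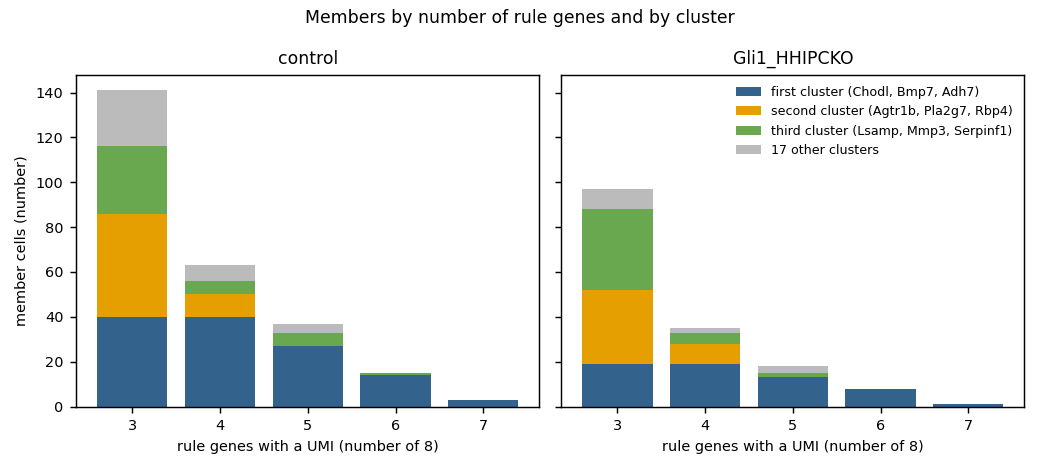
Number of members (vertical axis, cells) by how many of the 8 rule genes had a UMI (horizontal axis), stacked by cluster, for the control and the CKO library. Members with 3 genes are spread over the clusters, while those with 6 or 7 are nearly all in the first.

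Seen as a whole, the first cluster made up 2.55% (2.21 to 2.93%) of the control cells and 1.20% (0.980 to 1.45%) of the CKO cells without Epcam and Ptprc UMIs. It was again larger in the control mouse. The 74 and 45 cells of the cluster that were not members had medians of 2297 and 2206 UMIs, against 3900 and 4311 UMIs in its members, so the rule passed over its shallower cells. In those passed-over cells C1qtnf3 had 142 and 111.5 CPM, Adh7 66.1 and 68.6 CPM and Lamc3, a laminin chain that the rule did not use, 483 and 617.5 CPM. The cluster's members had 506 and 829 CPM of Lamc3, more in both libraries. Lamc3 was not held out of the clustering, so its level in cells of the cluster is a description.

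The name proposed for the members, fibroblasts marked by C1qtnf3, Adh7, Bdkrb1, Bmp7, Ntrk2 and Itgbl1, was checked gene by gene. All 8 genes of a fibroblast list were found in members of both libraries, summing to 50070.0 and 61210.0 CPM, with Col3a1, a fibrillar collagen, the highest at 20580.0 and 24030.0 CPM. Endothelial genes were close to absent: the list of 6 summed to 1.52 and 7.70 CPM, and all 6 were at 0 in the first cluster's members. Members had a median of 6 of the 8 adventitial markers in either library, 3 of the 8 alveolar markers, and 1 and 2 of the 8 myofibroblast markers. By these lists the members were fibroblasts with adventitial markers. The fibroblast list summed to 31590.0 and 27520.0 CPM in first-cluster members and 111600.0 and 106500.0 CPM in adventitial-marker cells. Of its 8 genes, 6 were at least 2-fold lower in first-cluster members in both libraries and 0 were higher.

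Of the 6 name genes, Adh7 and Bmp7 followed the first cluster. Adh7 had 146.5 and 184 CPM in its members, 3.55 and 35.05 CPM in members of the second and 68.1 and 58.8 CPM in members of the third. Bmp7 had 145 and 176.5 CPM in the first, 3.55 and 0 CPM in the second and 0 UMIs in the third. C1qtnf3 was spread over all 3, with 356 and 257 CPM, 174 and 61.3 CPM and 195 and 191 CPM. It was highest in the first cluster in both libraries.

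Bdkrb1 ran the other way, with 35.2 and 57.55 CPM in members of the first cluster, 114 and 118 CPM in the second and 68.1 and 68.6 CPM in the third. Its lowest level among the 3 was in the first. Ntrk2, the receptor for the nerve growth factor relative BDNF (ENSMUSG00000055254, chr13:58806569-59133970 on the plus strand), had 107.5 and 19.2 CPM in the first cluster's members and 129.6 and 82.6 CPM in adventitial-marker cells. Itgbl1, a secreted protein with integrin-like repeats (ENSMUSG00000032925, chr14:123659971-123975618 on the plus strand), had 89.0 and 46.0 CPM against 84.1 and 77.3 CPM. Neither Ntrk2 nor Itgbl1 set these members apart from adventitial-marker cells. The fibroblast list, which the rule did not use, was present in members. C1qtnf3, Adh7, Bdkrb1 and Bmp7 chose the members, so their levels do not bear on the name. In cells with alveolar markers Ntrk2 had 4.645 and 2.11 CPM and Itgbl1 0.516 and 1.06 CPM. The data thus went against Ntrk2 and Itgbl1, which the rule did not use, as marks that set members apart from adventitial-marker cells, while both were higher in members than in alveolar-marker cells.

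The second cluster's members carried alveolar markers beside adventitial ones, with medians of 4 and 5 of the 8 alveolar genes. Npnt, a matrix ligand of integrins and an alveolar marker, had 1189 and 1673 CPM in them, 380.1 and 879 CPM in first-cluster members and 31.8 and 147 CPM in members of the third cluster. The third cluster's members had a median of 7 of the 8 adventitial genes. Pi16, an adventitial marker, had 627 and 838 CPM in the third, 463.5 and 322 CPM in first-cluster members and 92.3 and 166.5 CPM in the second. Mmp3, a matrix protease, had 304 and 108 CPM in the third and 0 UMIs in first-cluster members of either library.

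Which genes set first-cluster members apart from adventitial-marker cells was read over all genes. Of 5727 genes with a UMI in at least 10% of either population in each library and at least 50 UMIs together, 197 (3.44%) were at least 2-fold higher in first-cluster members in both libraries, and 106 (1.85%) were at least 2-fold lower in both. The median log2 ratio was 0.28 in the control and 0.23 in the CKO library. The comparison cells carried more tags of other cell types. The AT2 list summed to 19200.0 and 16710.0 CPM in them and 1633 and 1116 CPM in first-cluster members, with all 4 AT2 genes tested lower in both libraries, as were both immune genes tested. The erythroid list summed to 9925 and 5146 CPM in adventitial-marker cells and 322.6 and 4945 CPM in first-cluster members. Of its 2 genes tested, Hbb-bt was lower in both libraries. The part of these tags was not tested. Counts by function below are read beside these totals, and the lists share genes with each other.

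Lamc3, a laminin chain of basement membranes, had 506 and 829 CPM in first-cluster members and 63.2 and 48.3 CPM in adventitial-marker cells. Their log2 ratios were 3.00 (2.685 to 3.33) and 4.10 (3.75 to 4.46). It was found in 75% and 88.3% of first-cluster members and 9.82% and 9.41% of adventitial-marker cells. Col7a1, the collagen of anchoring fibrils, had 143 and 173 CPM against 13.4 and 8.21 CPM, log2 ratios of 3.41 and 4.39. Fbln2, a matrix protein of basement membranes and elastic fibres, had 330.0 and 295 CPM against 117 and 115 CPM, log2 ratios of 1.499 and 1.36. The 3 genes are named by their rank over other cells or over adventitial-marker cells. Other basement membrane genes differed from these. Col4a1, a chain of the main network collagen, had 1478 and 1281 CPM against 1642 and 1265 CPM, and Col15a1 1209 and 453 CPM against 845 and 405 CPM. Col4a4, another chain, had 1.85 and 11.5 CPM against 39.1 and 41.5 CPM. Its levels in first-cluster members rest on few UMIs, and it was not among the collagen genes counted as lower. No list of basement membrane genes was tested.

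In the Wnt list 7 of 19 genes were higher and 2 lower, with medians of 0.79 and 1.01. Wif1, a secreted protein that binds Wnt ligands, had 228 and 242 CPM in first-cluster members and 17.1 and 17.9 CPM in adventitial-marker cells, log2 ratios of 3.73 and 3.76. Notum, an enzyme that strips the lipid from Wnt and so inactivates it, had 204 and 157 CPM against 19.8 and 9.66 CPM. Axin2, a target and brake of Wnt signalling inside the cell, had 70.45 and 69.1 CPM against 17.7 and 13.5 CPM. These 3 genes that limit Wnt signalling were all higher in first-cluster members. Lgr5, a receptor for R-spondins, had 61.2 and 80.6 CPM against 4.82 and 6.28 CPM, and the ligand Wnt4 had 59.3 and 188 CPM against 18.75 and 22.7 CPM. Wnt5b and the receptor Fzd1 were the other 2 higher genes. The receptor Fzd4 and the Wnt-binding Sfrp1 were the 2 lower ones, Sfrp1 with 22.25 and 34.5 CPM against 86.8 and 97.1 CPM.

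In the hedgehog list 5 of 13 genes were higher and none lower, with medians of 0.87 and 0.45. Hhip (ENSMUSG00000064325, chr8:79965851-80058006 on the minus strand) had 430.1 and 95.9 CPM in first-cluster members and 76.05 and 29.5 CPM in adventitial-marker cells, log2 ratios of 2.50 and 1.70. Ptch1, receptor and target of the pathway, had 128 and 288 CPM against 47.1 and 80.2 CPM, log2 ratios of 1.44 and 1.84. Foxf1, a transcription factor that hedgehog signalling induces in lung mesenchyme, had 109 and 242 CPM against 32.1 and 39.1 CPM. Foxf2, its relative, had 46.35 and 46.0 CPM against 15 and 19.8 CPM, and Sufu, which holds Gli factors back, was the fifth. Gli1 itself, a target as well as an effector, had 40.8 and 23.0 CPM against 18.75 and 32.4 CPM and was higher in the control library alone. Shh, the main ligand in lung, had 0 UMIs in members of both libraries.

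The BMP and TGF-beta list had 3 genes higher. Beside the rule gene Bmp7 these were Nbl1, a secreted BMP antagonist, with 2532 and 2620.0 CPM against 522 and 540.1 CPM, and Ltbp2, a microfibril protein, with 834 and 2060.0 CPM against 118 and 184 CPM. Log2 ratios were 2.28 and 2.28 for Nbl1 and 2.82 and 3.49 for Ltbp2. The ligand Gdf10 had 148 and 11.5 CPM against 303 and 145 CPM and was among the lower genes, as were the activin antagonist Fst and the decoy receptor Bambi. Nbl1 and Ltbp2 were thus higher, and Gdf10 lower, in first-cluster members of both libraries.

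Among transcription factors 6 of 22 were higher and 1 lower, medians 0.37 and 0.24. The T-box factor Tbx4, which marks lung mesenchyme, had 217 and 272 CPM in first-cluster members and 63.7 and 73.9 CPM in adventitial-marker cells. Its relatives Tbx2 and Tbx3 were also higher, as were Foxf1 and Foxf2. Osr2, an odd-skipped factor of connective tissue, had 66.7 and 57.55 CPM against 10.2 and 9.18 CPM, log2 ratios of 2.71 and 2.65. Ebf1, a factor found in adventitial fibroblasts and fat precursors, had 7.42 and 0 CPM against 71.8 and 115 CPM and was the lower one. Tcf21, a factor of lipid-storing lung fibroblasts, had 869.5 and 1051 CPM against 479 and 489 CPM.

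The retinoid list had 2 of 9 genes higher, the retinol dehydrogenases Adh1 and Adh7, and 1 lower, medians 0.44 and 0.17. Adh1 had 593 and 917 CPM against 259 and 295 CPM. Aldh1a2, which makes retinoic acid from retinal, had 1.85 and 0 CPM against 43.4 and 72.9 CPM. Adh7 is a rule gene, so its place in the count comes from the choice of members. Of the genes the rule did not use, Adh1 was thus higher and Aldh1a2 lower.

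The kinin and vasoactive list had 3 of 7 genes higher and none lower, medians 0.58 and 1.605. They were Bdkrb1, the angiotensin receptor Agtr2 with 31.5 and 69.1 CPM against 10.2 and 22.7 CPM, and the endothelin receptor Ednra with 274 and 472 CPM against 133 and 152 CPM. Bdkrb1 is a rule gene, which leaves Agtr2 and Ednra as the higher genes that the rule did not use. The IGF list had 3 of 11 higher and 1 lower, medians 0.19 and 0.21. The growth factor Igf1 had 350.4 and 587 CPM against 168 and 247 CPM, the IGF-binding Igfbp6 1135 and 1381 CPM against 563 and 675 CPM, and the rule gene Stc2 was the third. Igfbp5, another binding protein, had 74.2 and 26.9 CPM against 152 and 127.5 CPM and was the lower one. The FGF list had 2 of 8 higher, the growth factor Fgf7 with 126 and 127 CPM against 56.2 and 48.3 CPM and the receptor Fgfr4, and none lower, medians 0.61 and 1.075.

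The neurotrophin and neural guidance list had 3 of 18 genes higher and 3 lower, medians 0.04 and 0.20. Nrcam, an adhesion protein of neurons and glia, had 111 and 127 CPM in first-cluster members and 16.6 and 15.9 CPM in adventitial-marker cells. The rule gene St8sia2 and the guidance protein Sema5a were the other 2 higher genes. Slit3, a guidance ligand for Robo receptors, had 33.4 and 15.35 CPM against 370.1 and 482 CPM, log2 ratios of −3.47 and −4.97, and Sema3d and the ephrin receptor Epha3 were the other 2 lower genes. Without the rule gene, 2 genes were higher and 3 lower.

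Collagens were split, with 4 of 18 higher and 4 lower, medians −0.23 and −0.08. The fibrillar collagen gene Col1a2 was lower, as was Col3a1 with 12020.0 and 10840.0 CPM against 46610.0 and 44540.0 CPM. Col1a1 had log2 ratios of −1.92 and −2.03, and Col14a1, a collagen that binds fibrils, −1.21 and −1.43. The microfibrillar Col6a3 was higher, with 2807 and 2977 CPM against 1149 and 787 CPM, as were Col7a1 and the transmembrane collagens Col13a1 and Col23a1, the last with 378 and 307 CPM against 77.1 and 44.0 CPM. first-cluster members thus had less of the main fibrillar collagens and more of some others.

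The list of other matrix genes had 2 of 35 higher and 7 lower, medians −0.07 and 0.09. Beside Fbln2, the higher one was Spon1, a secreted adhesion protein, with 452 and 361 CPM against 173.5 and 104 CPM. The proteoglycans Dcn and Lum, which bind collagen fibrils, had log2 ratios of −2.08 and −2.56 and −2.055 and −2.67. Postn, a matrix protein of remodelling tissue, had 20.4 and 3.84 CPM against 342 and 507 CPM, and Tnxb, Fmod, Podn and Smoc2 were the other lower genes. In the protease list 2 of 22 were higher and 3 lower, medians −0.25 and −0.16. The metalloprotease Adamts8 had 100.1 and 222.5 CPM against 23.0 and 27.5 CPM and the protease inhibitor Serpine2 389 and 648 CPM against 152 and 269 CPM. Mmp3 had 0 UMIs in first-cluster members against 232 and 99.03 CPM, a log2 ratio of at most −5.385 and −3.105 with 3 counts in place of 0, and Adamts5 and Htra3 were the other lower genes.

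In the complement and chemokine list 2 of 21 genes were higher and 5 lower, medians −0.52 and −0.64. Cxcl14, a chemokine, had 532 and 1304 CPM against 216 and 130.4 CPM and was higher beside the rule gene C1qtnf3. The complement genes C2 and C7 had 7.42 and 11.5 CPM and 13.0 and 69.1 CPM against 121 and 186 CPM and 147 and 324 CPM, and Cfb was lower too. The chemokines Ccl11 and Cxcl12 had 3.71 and 0 CPM and 33.4 and 84.4 CPM against 183 and 280.2 CPM and 254 and 396 CPM. Ly6a, a surface protein of adventitial fibroblasts, had 1.85 and 0 CPM against 148 and 215 CPM. Scara5, a ferritin receptor found on the same fibroblasts, had 0 UMIs against 149 and 167 CPM, a log2 ratio of at most −4.75 and −3.86. Ly6a, Scara5 and Ccl11 were near or at 0 in these members. All 8 genes of the adventitial marker list were found in them, with Clec3b, a plasminogen-binding protein, at 2210.0 and 3023 CPM and Pi16 at 463.5 and 322 CPM.

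Smaller lists gave few genes past 2-fold in both libraries. The counts were 1 of 8 higher (Cdkn1a, a cyclin-dependent kinase inhibitor) and 1 lower (Igfbp5) for senescence, 1 of 1 for the cell cycle (the cyclin Ccnd2), 1 of 10 for glucocorticoid targets (the kinase Pdk4) and 1 of 2 for Notch (the target Heyl, 198 and 192 CPM against 72.8 and 50.7 CPM). Hypoxia targets had 1 of 9 lower (the peptide hormone Adm, 37.1 and 46.0 CPM against 161 and 269.5 CPM). Contractile genes (0 of 6), immediate early genes (0 of 17) and PDGF genes (0 of 3) had none in either direction. Of the 8 genes that defined adventitial-marker cells, Igfbp6 was higher and Cpz, Htra3, Dcn and Col14a1 were lower. The comparison cells had to have at least 4 of these 8, which favours lower values in other cells, also where these genes are counted in the matrix, collagen and protease lists.

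Beyond the lists, genes named by rank over adventitial-marker cells included Aqp1, a water channel, with 369 and 526 CPM in first-cluster members and 43.9 and 47.3 CPM in adventitial-marker cells. Entpd1, the surface enzyme CD39 that breaks down ATP, had 187 and 341.5 CPM against 21.4 and 35.3 CPM. Dner, a transmembrane Notch ligand of neurons, had 139 and 57.55 CPM against 13.4 and 19.3 CPM, and Fez1, an adaptor for transport along axons, 102 and 119 CPM against 28.9 and 19.8 CPM. These 4 were higher in first-cluster members in both libraries. Mannr, a long non-coding RNA, had 59.3 and 61.4 CPM against 7.50 and 4.35 CPM.

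**Figure D2:**
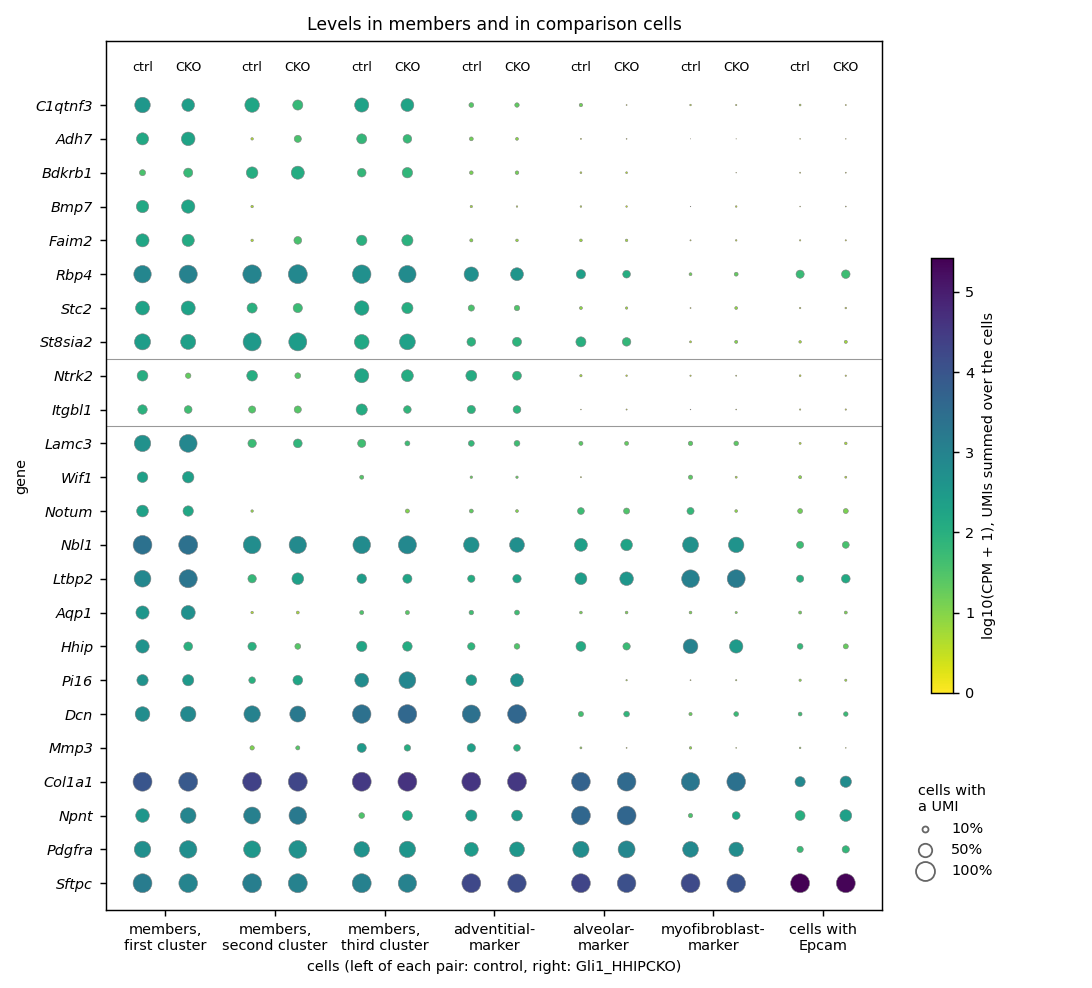
Levels of 24 genes (vertical axis) in 7 groups of cells of each library (horizontal axis), with dot colour for log10 of CPM plus 1 and dot size for the percentage of cells with a UMI. Lamc3, Wif1, Adh7 and Bmp7 are highest in members of the first cluster, while Rbp4 is found in members and in other fibroblasts.

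Marker lists of neighbouring cell types were also read, because nerve sheath and tendon fibroblasts share some of these genes. The endoneurial fibroblast list of 6 genes summed to 591.4 and 556.3 CPM in first-cluster members and 373.8 and 445.9 CPM in adventitial-marker cells. Of its 4 genes tested, Osr2 and Etv1, a transcription factor, were at least 2-fold higher in both libraries. The perineurial list of 6 summed to 155.7 and 418.2 CPM against 107.1 and 208.2 CPM, and of 2 genes tested the tight junction gene Cldn1 was higher in both. The Schwann cell list had S100b alone above 0 in them, at 5.56 and 3.84 CPM. In all members the neuron list of 6 had Uchl1 alone, at 3.81 and 1.28 CPM, and the list of cartilage cells summed to 3.81 CPM in the control and was at 0 in the CKO library. The tendon list of 6 summed to 65.54 and 137.2 CPM in members, of which Fmod made 44.2 and 129.5 CPM, with Mkx, Thbs4 and Kera at 0. Over all members the Schwann cell list summed to 12.2 and 29.5 CPM. It summed to 36.9 and 196.0 CPM in members outside the 3 clusters and to 3.21 and 7.73 CPM in adventitial-marker cells. Neuron and cartilage genes were thus near 0 in members, and Schwann cell genes were near 0 in first-cluster members.

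Hhip was the gene deleted in the CKO mouse. Members had 255 and 85.9 CPM of it, and the log2 ratio, CKO over control, was −1.57 (−1.97 to −1.19). It was found in 40.15% and 20.75% of members. first-cluster members had 430.1 and 95.9 CPM of Hhip, and their log2 ratio was −2.165 (−2.82 to −1.57). Hhip was lower in CKO members and was still counted in them. Of the cells with an Epcam UMI, 9.25 and 7.125% had an Hhip UMI. These cells held 1093 Hhip UMIs among 17138430 UMIs and 391 among 21646893, so Hhip was lower in the CKO library there as well. The part of free RNA in the Hhip values was not tested. Whether the counted tags lie in the deleted part of the gene is not known here, since the study's design names a 5′ kit and the labels a 3′ kit, and tags outside that part do not measure the deletion.

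By cluster, Hhip had 92.3 and 26.3 CPM in the second cluster's members, a log2 ratio of −1.81 (−3.38 to −0.50), and 173 and 122.5 CPM in the third's, a log2 ratio of −0.49 (−1.28 to 0.27). These members were grouped so after the data were seen, and the interval of the third held 0. Free RNA was not subtracted from these values, and its part was not tested. Adventitial-marker cells had 76.05 and 29.5 CPM, with a ratio on the log2 scale of −1.37 (−1.825 to −0.93). Hhip was found in 15.4 and 8.91% of them, against 9.25 and 7.125% of the cells with an Epcam UMI. The control level in first-cluster members was above that of the members of the other 2 clusters.

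Over all genes, 6205 had a UMI in at least 10% of the members of either library and at least 50 UMIs in members together, and are the genes tested at 2-fold. Of these, 132 (2.13%) were at least 2-fold higher in CKO members and 115 (1.85%) at least 2-fold lower. The median log2 ratio was −0.0041, with 3074 genes above 0. The 8 rule genes all stayed within 2-fold, with C1qtnf3 at a log2 ratio of −0.56 (−0.86 to −0.25). Of the 6 name genes Ntrk2 fell, with 107 and 46.2 CPM and a log2 ratio of −1.21 (−1.78 to −0.67).

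In the hedgehog list Hhip was the 1 gene of 12 past 2-fold in members, with a list median of 0.06. Gli1, whose activity drove Cre, had 28.2 and 33.3 CPM, a log2 ratio of 0.24 (−0.54 to 1.00), and Gli2, an effector, had 32.8 and 34.6 CPM. No change of Gli1 was detectable at this depth. Ptch1 had 99.1 and 165 CPM, a log2 ratio of 0.74 (0.38 to 1.102), and in first-cluster members 128 and 288 CPM, a log2 ratio of 1.17 (0.68 to 1.66). Foxf1 had 77.0 and 141 CPM in members and a log2 ratio of 1.14 (0.61 to 1.68) in first-cluster members. Gli1 had 40.8 and 23.0 CPM and Gli2 55.6 and 30.7 CPM in the same members, with a log2 ratio for Gli1 of −0.83 (−2.42 to 0.52) and for Gli2 of −0.86 (−2.19 to 0.30). Ptch1 and Foxf1 were thus higher in CKO cells of the first cluster, while the intervals of Gli1 and Gli2 there held 0.

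The IGF list had 0 of 11 genes past 2-fold, with a median of 0.32. Igf1 had 238 and 467 CPM, a log2 ratio of 0.97 (0.75 to 1.20), just inside 2-fold. In first-cluster members it had 350.4 and 587 CPM, a log2 ratio of 0.74 (0.43 to 1.06), and in adventitial-marker cells 168 and 247 CPM. Igf1 was higher in the CKO library in all 3 groups. Its receptor Igf1r had 44.2 and 79.5 CPM, and its ratio was 0.85 (0.31 to 1.39) on the log2 scale.

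The senescence list had 1 of 11 genes higher and 1 lower, with a median of 0.12. Cdkn1a (p21) rose in members, with 149 and 355 CPM and a log2 ratio of 1.25 (0.98 to 1.52), and had 226 and 568 CPM in first-cluster members and 79.8 and 276 CPM in adventitial-marker cells. Lmnb1, a lamin of the nuclear envelope, fell, with 33.5 and 10.3 CPM. Cdkn2a, another cyclin-dependent kinase inhibitor, had 0 UMIs in members of both libraries. The cell cycle list had 2 genes tested, none past 2-fold.

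The contractile list had 0 of 8 genes higher and 1 lower, with a median of −0.21. Acta2, smooth muscle actin, had 777 and 709 CPM in members, a log2 ratio of −0.13 (−0.28 to 0.018). In first-cluster members it had 252 and 575.5 CPM, a log2 ratio of 1.19 (0.85 to 1.54), and was found in 30.65% and 65.0% of them. Tagln, an actin-binding protein, had 226 and 602 CPM there and Myh11, smooth muscle myosin, 22.25 and 104 CPM. The 3 genes were higher in CKO cells of the first cluster. Des, the muscle intermediate filament, went the other way there, with 40.8 and 7.67 CPM and a log2 ratio of −2.41. Over all members Acta2 was found in 40.15% and 56.6% of cells and Myh11 in 11.6% and 16.98% in the control and CKO library, and the intervals of the Myh11 shares, 7.95 to 16.1% and 11.5 to 23.7%, overlapped. The share with Acta2 was thus higher in CKO members while its summed level was not. As a mean over cells the log2 ratio of Acta2 was 0.29. In cells with an Epcam UMI, Acta2 was found in 14.3 and 20.4%, Tagln in 16.1 and 25.35% and Myh11 in 6.91 and 11.9%. These shares were also higher in the CKO library, and the part of free RNA in the values of members was not tested. Over all members Des fell in summed level, with 99.8 and 34.6 CPM, while it was found in 11.6% and 11.3% of members. The fall is thus one of UMIs and not of cells with a UMI. The peribronchial list of 8 genes, markers of airway smooth muscle, summed to 580.0 and 128.2 CPM in members, with Actc1, an actin, the most abundant in the control at 307.9 CPM. It had 2097 and 599.6 CPM in members outside the 3 clusters, 672.3 and 107.8 CPM in the third and 66.74 and 42.2 CPM in the first. Its part in the values of Acta2 and Des was not tested. The list of vascular smooth muscle cells (8 genes, Pln at 0) summed to 17790.0 and 10130.0 CPM, of which Eln made most.

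Collagens had 0 of 19 higher and 1 lower, with a median of 0.02. The lower one was Col15a1, a basement membrane collagen, with 893 and 436 CPM, a log2 ratio of −1.035 (−1.21 to −0.86). Its level in first-cluster members was 1209 and 453 CPM. Col15a1 fell in both groupings. The list of other matrix genes had 1 of 36 higher and 1 lower, with a median of 0.18. Fmod, a fibril-binding proteoglycan, rose, with a log2 ratio of 1.55 (1.07 to 2.04), and Spon2, a secreted adhesion protein, fell, with 405.5 and 177 CPM. Eln, elastin, had 15900.0 and 8095 CPM, a log2 ratio of −0.97 (−1.015 to −0.93), and fibronectin Fn1 had 1579 and 2897 CPM. Both stayed within 2-fold.

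In the protease list 1 of 21 genes was higher and none lower, with a median of 0.04. It was the metalloprotease Adamts15, with 99.1 and 208 CPM. The BMP and TGF-beta list had 1 of 28 higher and 1 lower, with a median of 0.13. The BMP antagonist Chrdl1 had 25.9 and 53.9 CPM and rose. Gdf10 had 219.5 and 85.9 CPM in members, a log2 ratio of −1.35 (−1.76 to −0.965), and 148 and 11.5 CPM in first-cluster members. It was lower in CKO cells of both groupings, with 3 UMIs in the first cluster of the CKO library and a log2 ratio there of −3.69 (−6.00 to −2.09). Ltbp2 had 834 and 2060.0 CPM in first-cluster members.

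The Wnt list had 1 of 18 higher and none lower, with a median of −0.0046. Sfrp1 was the higher one, with 36.6 and 84.6 CPM. Wnt4 had 51.8 and 79.5 CPM in members, a log2 ratio of 0.62 (0.10 to 1.14), and 59.3 and 188 CPM in first-cluster members, a log2 ratio of 1.66 (0.99 to 2.35). Wif1 had 107.5 and 96.2 CPM and Notum 98.3 and 60.3 CPM in members. Wnt4 was higher in CKO cells, and past 2-fold in the first cluster.

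The neural list had 0 of 20 genes higher and 2 lower, with a median of 0.34. They were Ntrk2 and Ntf3, a neurotrophin, with 31.25 and 15.4 CPM, a log2 ratio of −1.02 (−2.085 to −0.066). In first-cluster members Ntrk2 had a log2 ratio of −2.49 (−4.16 to −1.18). The kinin and vasoactive list had 0 of 9 higher and 1 lower, with a median of 0.41. Agt, the precursor of angiotensin, had 74.7 and 23.1 CPM, a log2 ratio of −1.69 (−2.51 to −0.96). In first-cluster members it had 22 UMIs in the control and 0 in the CKO library. A neurotrophin, its relative's receptor and the angiotensin precursor were thus lower in CKO members.

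The complement and chemokine list had 7 of 21 genes higher and none lower, with a median of 0.68. C3, the central complement protein, had 66.3 and 255 CPM, a log2 ratio of 1.94 (1.57 to 2.325), and C4b had 41.2 and 149 CPM. For C3 the values in first-cluster members were 16.7 and 299 CPM. C7, a part of the membrane attack complex, had 121 and 337 CPM, and the convertase parts C2 and Cfb had 33.5 and 82.1 CPM and 15.2 and 47.45 CPM. These 5 complement genes were all higher in CKO members. The mix of members differed, with 16.6 and 27.0% in the third cluster and 21.6 and 26.4% in the second. Within the second C2 had 92.3 and 140.2 CPM and Cfb 31.95 and 30.7 CPM, and within the third 40.9 and 132 CPM and 27.3 and 118 CPM. C7 had 309 and 845.5 CPM in the second and 95.4 and 147 CPM in the third. No interval was computed for these values by cluster, and those other than C7 in the second rest on few UMIs. The part of the mix was not tested. The chemokine Cxcl14 had 401 and 864 CPM, a log2 ratio of 1.11 (0.94 to 1.28). Ccl11, a chemokine for eosinophils, had 54.1 and 186 CPM in members, but 2 UMIs in the control and none in the CKO library in first-cluster members, and Ly6a, at 21.3 and 109 CPM, was likewise near 0 there. The higher Ccl11 and Ly6a of CKO members thus lay outside the first cluster.

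Glucocorticoid targets had 3 of 10 genes higher and none lower, with a median of 0.59 and all 10 above 0. Mt1, a metallothionein, had 85.4 and 717 CPM, a log2 ratio of 3.07 (2.775 to 3.38), and 24.1 and 659.9 CPM in first-cluster members. Fkbp5, a chaperone partner that feeds back on the glucocorticoid receptor, had 24.4 and 82.1 CPM, a log2 ratio of 1.75 (1.12 to 2.41). Pdk4, a mitochondrial kinase, had 29.7 and 71.8 CPM. The 3 genes rose in CKO members. Mt1 was found in 17.8 and 44.65% of members and 29.3 and 48.1% of adventitial-marker cells. In cells with an Epcam UMI it was found in 50.7 and 81.0%. The share with Mt1 was thus higher in the CKO library outside the members as well. Hypoxia targets had 1 of 9 higher (Ddit4, an mTOR inhibitor, 46.5 and 101 CPM) and none lower, with a median of −0.23.

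Immediate early genes had 0 of 17 higher and 1 lower, with a median of −0.05. It was the nuclear receptor Nr4a1, with 701 and 276 CPM, a log2 ratio of −1.35 (−1.57 to −1.13). Transcription factors had 0 of 25 higher and 2 lower, Nr4a1 and the forkhead factor Foxs1, with a median of −0.11. Foxs1 had 82.3 and 38.5 CPM. The retinoid list had 1 of 9 higher and none lower, with a median of 0.08. It was Aldh1a1, which makes retinoic acid from retinal, with 67.1 and 156.5 CPM. FGF genes (0 of 9, median −0.21), PDGF genes (0 of 3, median −0.22) and Notch genes (0 of 3, median 0.05) had none past 2-fold.

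Of the genes named in the study's own single-cell work, 2 of 16 tested were higher (Cdkn1a and Scube2) and 1 lower (Hhip), with a median of 0.28. Scube2, a secreted protein that helps release hedgehog ligand and an alveolar marker here, had 97.55 and 221 CPM. Pdgfra, the PDGF receptor of many lung fibroblasts, had 469 and 496 CPM, a log2 ratio of 0.083 (−0.10 to 0.27). Its interval held 0. Among the marker sets, the adventitial one had 0 of 8 genes past 2-fold (median 0.13), the alveolar one Scube2 of 5 (median 0.80), and the myofibroblast (0 of 5), pericyte (0 of 3) and mesothelial (0 of 1) ones none. The peribronchial one had Des alone tested.

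**Figure D3:**
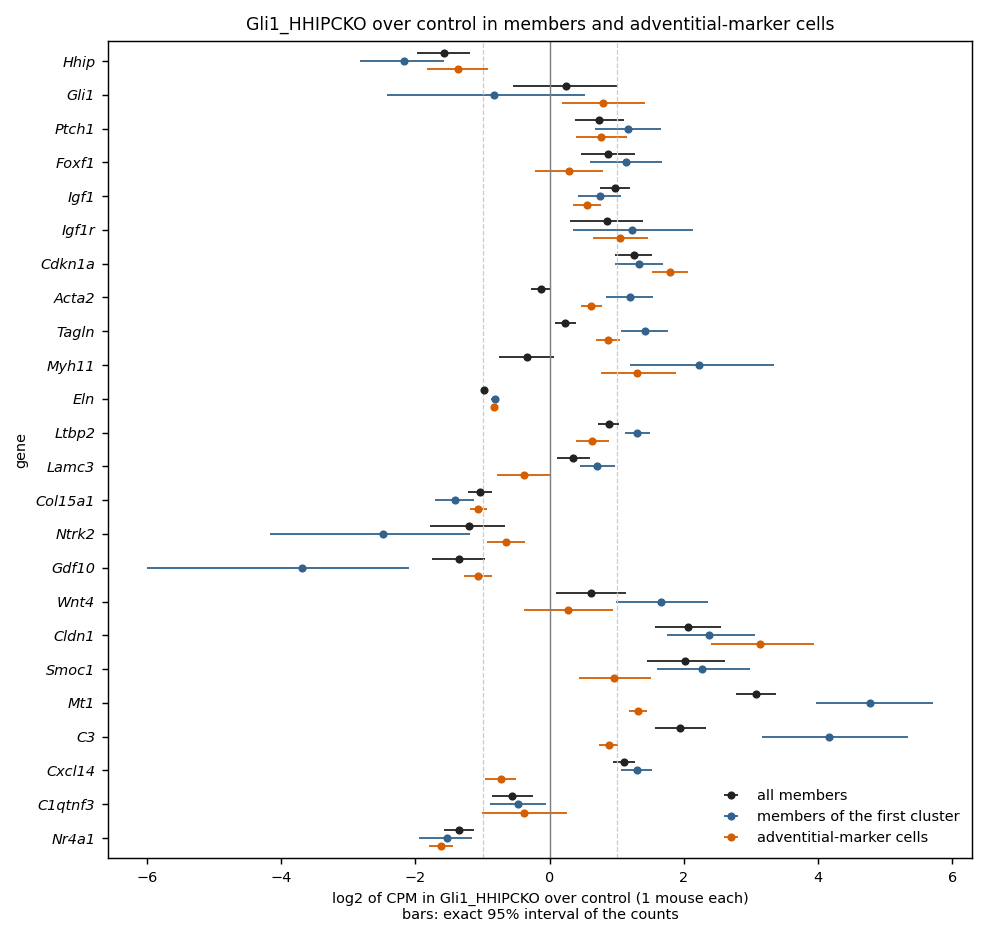
Log2 ratio of CKO over control (horizontal axis) with exact 95% intervals for 24 genes (vertical axis) in all members (black), members of the first cluster (blue) and adventitial-marker cells (orange), with dashed lines at 2-fold. Hhip is left of 0 in all 3 groups, while Acta2 is right of 2-fold in the first cluster and near 0 over all members.

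By rank, the highest ratios in members after Xist were those of Mt1, Ly6a, Cldn1, Smoc1 and Ngb. Cldn1, a tight junction protein, had 38.9 and 162 CPM in members, a log2 ratio of 2.06 (1.58 to 2.55), and 53.8 and 280.1 CPM in first-cluster members. Smoc1, a matrix protein that limits BMP signalling, had 28.2 and 114 CPM, a log2 ratio of 2.02 (1.45 to 2.61), and 50.1 and 242 CPM in first-cluster members. Ngb, neuroglobin, had 13.7 and 55.15 CPM. Cldn1 and Smoc1 rose in the first cluster as well as over all members. Itga1, the collagen-binding integrin subunit, had 20.6 and 70.5 CPM and also rose.

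Among the 15 lowest ratios, Hdhd3, a hydrolase-like protein (ENSMUSG00000038422, chr4:62499008-62503467 on the minus strand), had 76.2 and 10.3 CPM, a log2 ratio of −2.89 (−4.14 to −1.86). Alad, an enzyme of haem synthesis (ENSMUSG00000028393, chr4:62509169-62519918 on the minus strand), had 80.8 and 24.4 CPM. The 2 genes lie side by side on chromosome 4, and in adventitial-marker cells they had 52.5 and 7.73 CPM and 82.5 and 34.3 CPM. Both were lower in the CKO mouse in both populations. H2afx, a histone that marks broken DNA, had 67.8 and 16.7 CPM and Cisd1, an outer mitochondrial membrane protein, 47.25 and 14.1 CPM.

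Of the 15 lowest, 6 were AT2 or lysozyme and antigen presentation genes (Lyz1, Cxcl15, Lyz2, Sftpc, Cd74 and Sftpa1), and Aqp5, a water channel of AT1 cells, was another. The AT2 list had all 8 genes above 0 in members of both libraries, summing to 14860.0 and 3611 CPM with Sftpc the most abundant, and all 4 genes tested were lower in CKO members. The sum in first-cluster members was 1633 and 1116 CPM. The AT1 list had 6 and 5 of 6 genes above 0, summing to 196.6 and 58.99 CPM, with Rtkn2 at 0 in the CKO library. The immune list summed to 1182 and 279.6 CPM, of which Lyz2 made 915 and 206.5 CPM, with Ptprc at 0 by the rule, and both genes tested were lower. In members of the second cluster the AT2 list summed to 1452 and 1319 CPM, in the third to 1276 and 1318 CPM, and the median over all members was 1463 and 1051 CPM. The large difference in the sum thus lay in members outside the 3 clusters. The part of these tags in the other differences was not tested.

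The erythroid list had 3 of 3 tested genes higher in CKO members, summing to 3763 and 8249 CPM, with Hbb-bs, a haemoglobin, the most abundant. first-cluster members had sums of 322.6 and 4945 CPM, with log2 ratios of 4.13 for Hbb-bs, 5.57 for Hba-a1 and 0.75 (−0.055 to 1.54) for Hbb-bt. Members outside the 3 clusters had sums of 17060.0 and 57800.0 CPM, those of the second cluster 248.5 and 236.6 CPM and those of the third 322.5 and 372.4 CPM. The summed rise thus lay in the first cluster and outside the 3 clusters. The first cluster's Acta2, Ptch1, Mt1 and C3 were also higher in the CKO library, and the part of haemoglobin in those differences was not tested. The median cell of that group had 258.3 and 283.2 CPM, and the median over all members was 250.6 and 264.6 CPM, so the summed rise rested on part of the cells. In adventitial-marker cells the list summed to 9925 and 5146 CPM, the other way round. The club cell list had 4 and 3 of 5 genes above 0, summing to 97.55 and 110.3 CPM, mainly Scgb1a1, with Muc5b at 0. The ciliated list had 2 of 6 genes in the control and none in the CKO library. The perineurial list had 1 of 2 tested genes higher (Cldn1), the tendon list 1 of 1 (Fmod), the endoneurial list 0 of 4, the fibroblast list 0 of 8 (median 0.26) and the smooth muscle list 0 of 6. Their part in the result was not tested.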

How the data were processed

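The deposited values were raw UMI counts per gene and cell for 32285 genes, made by the authors with Cell Ranger on mm10, and the count tables were used as given. The processing notes give Cell Ranger 3.1.0 and the file header 6.1.0. Of the genes, 32235 had coordinates in GENCODE M21. Levels were UMIs summed within a group and library, divided by all of its UMIs, with exact Poisson intervals for levels and exact binomial intervals for ratios. A count of 0 was read as up to 3 counts. Genes with a UMI in 10% of cells and with 50 UMIs in all were compared at 2-fold. Clustering used 2000 variable genes, 30 components, 20 neighbours and Leiden resolution 1. No ambient RNA or doublets were removed. The members and the 46 gene lists, 21 of them by function, 15 for cell types and 6 of 8 genes for marker sets, were chosen with earlier results of these data known.

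Genes named in the text are the 8 rule genes with Ntrk2 and Itgbl1, the 30 highest in members over all other cells, the 15 highest and 15 lowest CKO over control in members, the 15 highest and 15 lowest in members over adventitial-marker cells, genes of the lists, and genes the paper names for its single-cell data. Others are said to be chosen after their values were seen. The tools were numpy 2.4.6, pandas 2.3.3 and scipy 1.17.1 under Python 3.11.15, with leidenalg 0.10.2, igraph 0.11.9 and scikit-learn 1.9.0 for clusters and matplotlib 3.10.9 for figures.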

Additional observations from a re-analysis of the deposited data

Results flagged for a closer look

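For 16 of the listed or ranked genes the log2 ratio of CKO over control had an interval on 1 side of 0 in members and on the other side in adventitial-marker cells. In members the ratio was above 0, and in adventitial-marker cells below 0, for Cxcl14 (1.11 against −0.73), the haemoglobins Hba-a1 (1.46 against −0.68), Hbb-bs (1.096 against −0.90) and Hbb-bt (1.19 against −1.33), and, by little, for Col1a1 (0.34 against −0.12), Col1a2 (0.29 against −0.10), Col3a1 (0.22 against −0.07), Col6a1 (0.13 against −0.12), Dpt (0.31 against −0.19), Fbn1 (0.30 against −0.10) and Tnxb (0.19 against −0.19). It was below 0 in members and above 0 in adventitial-marker cells for Jund (−0.13 against 0.21), Lyz1 (−2.91 against 0.39), Lyz2 (−2.15 against 0.79), Sftpa1 (−1.84 against 0.58) and Sftpb (−1.45 against 0.16). In the first cluster's members the ratio of Cxcl14 was 1.29, while those of Col1a1, Col1a2 and Col3a1 were −0.23, −0.29 and −0.15. Each difference between the populations rests on 1 mouse per group and was not tested.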

How the results depend on the processing

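Of 77 alternatives, 43 stayed within the interval (for counts of genes, within 1.5 times) and 34 moved. No ratio whose interval lay on 1 side of 0 changed sign. Those of Acta2 and Gli1, whose intervals held 0, did: from −0.13 to 0.42 (at least 2 rule genes), 0.29 (mean over cells) and 1.19 (first cluster) for Acta2, which was −0.52 (−0.75 to −0.30) with at least 4, and from 0.24 to −0.17 (at least 4), −0.11 (mean over cells) and −0.83 (first cluster) for Gli1. Of the alternatives for Acta2, Cdkn1a, Gli1, Ptch1, Pdgfra and Igf1r, 18 stayed and 6 moved. Asking for at least 2 rule genes gave member shares of 7.16 and 5.31%, for at least 4 1.52 and 0.707%, and leaving out Rbp4 1.74 and 0.809%. Thinning gave 1.85 and 0.842%, all deposited cells as the total 2.36 and 1.29%, and the whole first cluster 2.55 and 1.20%. Leaving out cells with markers of another type gave 4.06% for the control, and leaving out cells with at least 10 Sftpc UMIs, chosen after seeing the data, 4.01%. The control share was the higher under each of these. The Hhip log2 ratio was −2.29 with at least 4 genes, −2.07 without Rbp4, −2.17 in the first cluster and −0.49 in the third (chosen after seeing the data). The Igf1 ratio was 0.74 in the first cluster and 1.26 in the second (chosen after seeing the data). Genes past 2-fold numbered 154 of 3277 tested with at least 4 genes, 162 of 3626 without Rbp4 and 155 of 2952 in the first cluster. They numbered 93 of 2769 with thinned members and 94 of 3619 with at least 100 UMIs, against 247 of 6205. Each of these settings has fewer cells, fewer UMIs or fewer genes to test. The count was lower in each, but the share of tested genes was not. The share of members in their main cluster was 85.7% at resolution 0.5 and 68.7% with no gene held out, against 44.0%. In the CKO library clustered on its own it was 37.1%, against 37.7% of CKO members in the joint clustering. That value counts among the 34 that moved because it was set against the 44.0% of both libraries. These alternatives were all chosen after seeing the data. For the other values the cause was not tested.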

Other observations

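Cells left out by the rule's limits also carried its genes. Of cells with an Epcam UMI, 21 of 3026 in the control library (0.694%, exact interval 0.430 to 1.06%) and 10 of 3270 in the CKO library (0.306%, 0.147 to 0.562%) had at least 3 of the 8 rule genes. Of cells with a Ptprc UMI and none of Epcam, 4 of 130 in the control library (3.08%, 0.845 to 7.69%) and 0 of 70 in the CKO library (up to 5.13%) did. No library was repeated, the mice differed in sex, and a mean over 159 CKO members can rest on few cells.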
